A study of Mus musculus with 14 samples.

Results

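The regions described are peaks of elongating RNA polymerase II that were called in wild-type cells and had no counterpart in cells lacking CHD7. They were found in chromatin immunoprecipitation sequencing (ChIP-seq) of G1ER cells. This mouse erythroblast line has no endogenous GATA1 but an introduced GATA1 fusion that becomes active with estradiol. Cells were Chd7 knockout (KO, Chd7-/-) or wild type (WT), and both genotypes share the G1ER background. The labels do not say whether the KO line is 1 clone, nor whether estradiol, which they name for differentiation, was given to the cells before ChIP. Of 14 samples, 8 were immunoprecipitated, with antibodies to RNA polymerase II phosphorylated at serine 2 of its C-terminal domain (S2P, 2 replicates per genotype) or to the transcription factors GATA2 and RUNX1 (1 library each per genotype). The other 6 were inputs, not analysed here. Each target had 1 peak list per genotype, so there was no replicate spread, no difference was tested, and each value compares deposited lists.

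A WT-only S2P peak is a peak under 10 kb in the WT S2P list that no peak of the KO S2P list overlaps by even 1 bp. There were 32014 of them, which is 19.6% of the 162977 WT peaks under 10 kb, in a list of 163620 peaks. The remaining 130963 WT peaks under 10 kb are called shared. By the reversed rule 43387 KO peaks, or 26.4% of 164422, were KO-only. WT-only peaks were chosen by the positions of the peaks in both S2P lists, so their number, height, width and distance to KO peaks are a description and support nothing. Their position in genes, and GATA2 and RUNX1 binding at them, were not read in the choice. Position is still tied to the rule, since no WT peak can be WT-only where KO peaks lie.

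CHD7 is an ATP-dependent chromatin remodeller of the chromodomain helicase family. During transcription, kinases phosphorylate serine 2 of the polymerase's C-terminal repeats after release from promoter-proximal pausing, so S2P is low at the start of a gene, increases along its body and is high near and past its 3′ end. GATA2 is a zinc finger factor of blood progenitors, and RUNX1 is a Runt domain factor that binds DNA with its partner CBFB.

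Erythroid genes, the markers of the labelled cell type, carried S2P in both genotypes. Peaks covered part of 51 of 55 erythroid genes in KO and 52 in WT, with a median coverage of 54.1% in KO and 52.5% in WT. Of the other marker lists, 12 of 25 stem and progenitor genes, 9 of 19 mast cell genes and 6 of 22 megakaryocyte genes had any coverage. So had 3 of 20 myeloid genes, 2 of 20 lymphoid genes and 2 of 20 non-blood genes. Each number was the same in KO and in WT, and the median in each of these lists was 0%. Chd7 itself had no S2P coverage in either genotype, so the locus gives no check of the labels. The KO S2P list covered 123 Mb and the WT list 115 Mb.

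The sequences shown are the stretches before gene starts that hold the 5 WT-only summits of highest −log10 q found in such stretches, outside predicted genes. Each runs over the 250 bases before a RefSeq start (GRCm38.p6, minus strand in all 5), and a gene can have several starts. Capitals mark the motifs searched on both strands: the RUNX core TGTGGT, the GATA motifs AGATAA and TGATAA, the GC box GGGCGG and the CCAAT box CCAAT. Neighbouring GC boxes can overlap and then read as one run.
Atp1b3: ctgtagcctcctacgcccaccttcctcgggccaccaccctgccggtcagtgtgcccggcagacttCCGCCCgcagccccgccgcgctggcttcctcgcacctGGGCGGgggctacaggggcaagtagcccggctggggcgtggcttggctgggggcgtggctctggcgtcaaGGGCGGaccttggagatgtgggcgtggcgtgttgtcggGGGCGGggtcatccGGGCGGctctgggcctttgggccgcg
Ranbp9: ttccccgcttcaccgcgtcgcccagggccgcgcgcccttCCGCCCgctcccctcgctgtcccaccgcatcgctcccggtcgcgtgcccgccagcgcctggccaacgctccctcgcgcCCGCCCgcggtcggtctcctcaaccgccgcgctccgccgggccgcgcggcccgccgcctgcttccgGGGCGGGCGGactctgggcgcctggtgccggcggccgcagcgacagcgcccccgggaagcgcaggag
Tlk1: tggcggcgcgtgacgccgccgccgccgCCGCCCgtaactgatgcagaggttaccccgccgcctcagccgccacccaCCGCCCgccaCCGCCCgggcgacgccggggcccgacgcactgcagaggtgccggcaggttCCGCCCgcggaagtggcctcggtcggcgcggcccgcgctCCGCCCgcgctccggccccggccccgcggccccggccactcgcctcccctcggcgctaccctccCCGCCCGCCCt
Ccdc157: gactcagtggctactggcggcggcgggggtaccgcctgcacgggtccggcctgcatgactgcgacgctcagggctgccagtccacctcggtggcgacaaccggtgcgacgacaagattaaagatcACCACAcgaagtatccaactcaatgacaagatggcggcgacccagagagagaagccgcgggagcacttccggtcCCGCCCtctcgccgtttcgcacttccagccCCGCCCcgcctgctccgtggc
Dbi: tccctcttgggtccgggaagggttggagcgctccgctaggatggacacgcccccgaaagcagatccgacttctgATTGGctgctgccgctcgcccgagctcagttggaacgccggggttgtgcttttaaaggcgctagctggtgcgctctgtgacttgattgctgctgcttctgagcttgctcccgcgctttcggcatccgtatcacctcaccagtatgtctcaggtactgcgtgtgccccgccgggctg
Atp1b3 (chr9:96364432-96364681), which encodes a beta subunit of the sodium-potassium pump, held 5 GC boxes. Its WT-only peak had 73 fragments at the summit (exact Poisson 95% interval 57.2 to 91.8) and lay 171 bp from the nearest KO S2P peak. RUNX1 peaks overlapped it in both genotypes, with 119 summit fragments in KO and 90 in WT. At Ranbp9 (chr13:43480974-43481223), which encodes a RAN-binding scaffold protein, the stretch held 4 GC boxes and the WT-only S2P peak had 69 fragments (53.7 to 87.3). It overlapped a RUNX1 peak of 27 fragments in WT, and none in KO. Tlk1 (chr2:70825481-70825730), a serine/threonine kinase gene with 7 GC boxes, had the opposite: a WT-only S2P peak of 57 fragments (43.2 to 73.9) over a RUNX1 peak of 25 fragments in KO and none in WT. The stretch before Ccdc157 (chr11:4160294-4160543) holds the RUNX core and 2 GC boxes, and its peak of 69 fragments overlapped RUNX1 peaks in both genotypes, with 49 fragments in KO and 47 in WT. A GATA2 peak of 53 fragments was called there in KO alone. Ccdc157 itself held no WT-only and 2 KO-only S2P peaks, with 2.26% of the gene covered in KO and 0% in WT. At Dbi (chr1:120120920-120121169), the gene of the acyl-CoA binding protein, the stretch holds 1 CCAAT box, the S2P peak had 81 fragments (64.3 to 100.7), and RUNX1 had 64 fragments in KO and 65 in WT.

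WT-only summits fell in 236 promoter windows of 227 genes, counting windows of 300 bases that run from 250 before to 50 after a start. These windows were rich in G and C, with a median of 64.0% against 62.0% in the 1059 windows with a shared summit, 60.8% in the 210 windows with a KO-only summit and 56.3% in all 21237 windows. The RUNX core was found in 8.47% of them (exact Clopper-Pearson 95% interval 5.25 to 12.8), against 13.0% (11.1 to 15.2) with a shared summit, 14.8% (10.3 to 20.3) with a KO-only summit and 15.0% of all windows. GC boxes were found in 64.0%, against 63.1%, 56.7% and 46.2% in the same 3 classes. GATA motifs were in 9.32%, against 8.03%, 10.5% and 15.9%, and CCAAT boxes in 30.5%, against 33.4%, 34.8% and 38.2%. Each match is a description of letters in a window and not a site.

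WT-only S2P peaks were weak and narrow. Their summits held 16 to 234 fragments with a median of 27 (quartiles 23 to 33), against a median of 36 at shared WT peaks and 27 at KO-only peaks. The median fold enrichment was 2.61 over a median local background of 9.39 fragments, against 3.12 at shared WT peaks and 2.72 at KO-only peaks. Their median width was 201 bp, against 387 bp at shared WT peaks and 208 bp at KO-only peaks. The share of WT peaks without a KO peak was 41.4% (40.6 to 42.1) in the weakest 10% of the WT list by deposited −log10 q, 22.5% in class 5 of 10 such classes and 0.0368% in the strongest 10%, where 6 of 16298 peaks were WT-only.

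**Figure D1:**
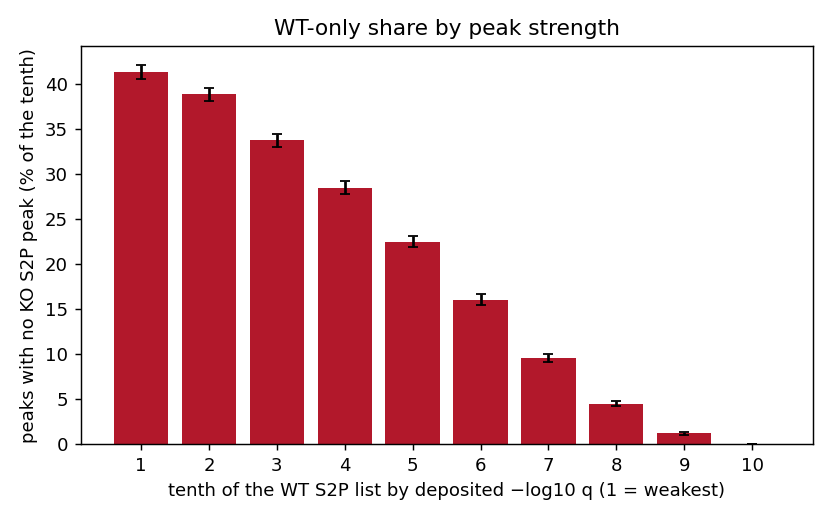
Share of WT S2P peaks under 10 kb that had no KO S2P peak, in 10 equal classes of the WT list from the weakest (1) to the strongest (10) by deposited −log10 q. Bars are percentages with exact 95% intervals for counting error, and they fall in every step, with 41.4% in the first class and 0.0368% in the last.

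Most WT-only peaks lay beside S2P peaks of the KO list. The median distance to the nearest KO peak was 425.5 bp (quartiles 171 to 1147 bp), 72.1% had a KO peak within 1 kb, and 983 (3.07%) had none within 10 kb. Of all WT-only peaks, 8065 had no other WT peak within 1 kb. The stretches between neighbouring KO peaks that held a WT-only peak numbered 22606, and 73.5% of them held 1. In 17 stretches there were 10 or more. At the limit of the rule, 419 WT-only peaks had a KO peak 0 to 9 bp away and 401 WT peaks were overlapped by 1 to 10 bp, and both classes had a median of 27 fragments. Peaks in Nptn (34 fragments) and Clpb (36 fragments) adjoined a KO peak with no base between, while the WT peak with the strongest call among those overlapped by 1 bp (chr11:62406756-62406992) had 33 fragments.

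The height a KO summit would have needed to be listed was close to the height of most WT-only summits. At each peak's own WT background, since the KO background there was not known, the weakest p in the KO list corresponds to a median of 19 fragments (quartiles 17 to 23). The scaling of the KO pileup by 0.961 was left out of this number, so slightly more KO fragments would be needed at that background. WT-only summits stood at a median of 1.37 times that number, and 559 (1.75%) stood at 2 times or more. A missing KO call is therefore not a KO level of 0.

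The 10 WT-only peaks in named genes with the highest −log10 q, which weighs the summit against its local background, lay in genes that S2P covered in part in both genotypes. Eif1ax, an X-linked translation initiation factor gene, had 82 fragments (65.2 to 101.8) at chrX:159372218-159372408, 124 bp inside its start and 1309 bp from a KO peak. S2P covered 41.1% of Eif1ax in KO and 65.0% in WT. Nol4l had 63 fragments (48.4 to 80.6) at chr2:153411468-153411802, and S2P covered 3.67% of the gene in KO and 8.50% in WT. Elf1, an ETS family factor gene, had 106 fragments (86.8 to 128.2) at 464 bp from its start, 8140 bp from a KO peak and under a RUNX1 peak of 40 fragments in KO and 41 in WT. Tomm34, a chaperone of mitochondrial import, had 50 fragments, and the replication factor gene Wdhd1 had 51. Of these, Wdhd1 was covered alike, 83.7% in KO and 84.3% in WT.

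The other 5 of these 10 lay in Blm, the helicase gene of Bloom syndrome, Ppp2r2a, a regulatory subunit of protein phosphatase 2A, Tshz1, a zinc finger factor, Igf2bp1, an mRNA-binding protein, and Cers6, a ceramide synthase. They had 51 to 70 summit fragments. Blm was covered 74.7% in KO and 71.4% in WT, and its WT-only S2P peak overlapped GATA2 peaks of 76 fragments in KO and 66 in WT and a RUNX1 peak of 21 fragments in KO alone. Ppp2r2a had a RUNX1 peak of 45 fragments in KO and none in WT under its WT-only S2P peak. In Elf1, Blm and Ppp2r2a the KO S2P list covered more of the gene than the WT list did.

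Over 5 kb from any protein-coding gene there were 1226 WT-only peaks, 3.83% of all. The one with the highest −log10 q, also the highest of all WT-only peaks (31.4), held 80 fragments (63.4 to 99.6) at chr5:96853380-96853938. It lay 53677 bp from any KO S2P peak and 7680 bp from Anxa3, an annexin gene. The next 4 had 38 to 61 fragments, and their nearest protein-coding genes were Arnt, Gm6592, Lhfpl3 and Marveld2. The peak near Arnt lay in the transcribed pseudogene Gm4349, and the one nearest to Lhfpl3 in the pseudogene Gm9523. The peak near Arnt overlapped RUNX1 peaks of 36 fragments in KO and 19 in WT.

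WT-only S2P peaks leaned toward the 5′ part of genes, where shared S2P peaks were scarce. For summits in exactly 1 protein-coding gene of known strand and at least 2 kb, 25.6% of 23466 WT-only summits (25.0 to 26.1) lay in the first 20% of the gene, against 15.1% of 90353 shared WT summits (14.9 to 15.3) and 14.1% of 30763 KO-only summits (13.7 to 14.5). In the last 20% WT-only summits had the lowest share, 17.4%, against 24.2% of shared and 21.7% of KO-only summits. The median position, with 0 at the start and 1 at the end of the gene, was 0.44 for WT-only, 0.57 for shared WT and 0.54 for KO-only summits. The zone from 1 to 5 kb past the start held 13.9% of WT-only, 9.18% of shared and 5.93% of KO-only summits, and that from 5 to 10 kb held 15.0%, 10.5% and 8.06% in the same order. The zone from 20 to 50 kb held 22.0% of WT-only summits, against 30.3% of shared and 30.9% of KO-only summits.

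Within classes of gene length and of peak strength, the WT-only share in the first 20% of the gene stayed above the shared one. In genes of 20 to 50 kb, 30.4% of WT-only summits (29.3 to 31.6) lay in the first 20%, against 15.3% of shared and 13.2% of KO-only summits. In genes of 100 kb or longer the shares were 20.8%, 15.0% and 15.1%, and in genes of 2 to 20 kb 23.3%, 17.4% and 18.0%. Restricted to summits of 23 to 33 fragments, the middle of the WT-only range, the shares were 21.7%, 9.57% and 12.2%. Restricted to the middle range of WT-only −log10 q, the shares in the first 20% were 24.5% for WT-only and 13.6% for shared summits. With each gene weighted equally they were 27.4%, 18.0% and 17.6%. WT-only peaks with no KO S2P peak within 1 kb had 32.2% in the first 20%, against 14.5% of KO-only peaks with no WT peak within 1 kb. These restrictions were chosen after the lean had been seen. The local background was also higher there: its median was 11.6 fragments at WT-only summits in the first 20% and 8.48 in the last. At shared WT summits it was 13.1 and 9.72, and at KO-only summits 10.3 and 8.08, and its part in the lean was not tested. KO S2P peaks covered 25.4% of the first 20% and 63.4% of the last 20% in the 5841 genes described below. WT-only peaks thus had less room near the 3′ end, and the part of this in the lean was not tested.

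Coverage and shared summits come from the same S2P lists and are a description, and WT coverage holds the WT-only peaks themselves, which covered 3.43% of the first 20% of the 5841 genes used here and 1.68% of the last. Coverage was pooled over the bases of 5841 genes with at least 10% of their length under S2P peaks, so long genes weigh more. In the first 20% it was 25.4% in KO and 27.7% in WT, a KO to WT ratio of 0.915. In the next 4 equal parts of the gene, toward the 3′ end, the ratio was 1.06, 1.10, 1.10 and 1.07. Of genes that differed, KO was lower in 62.0% in the first 20% and in 28.1% in the last 20%. At summits shared 1 to 1, the median log2 ratio of KO to WT height was −0.05 in the first 20%, where 57.7% of summits were lower in KO, and 0.09 in the last 20%, where 38.3% were lower in KO. Over all shared summits the median was 0.06, with 41.6% lower in KO, and another scaling of the lists would move all of these medians alike. With 1 list per genotype, genotype and library cannot be told apart.

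**Figure D2:**
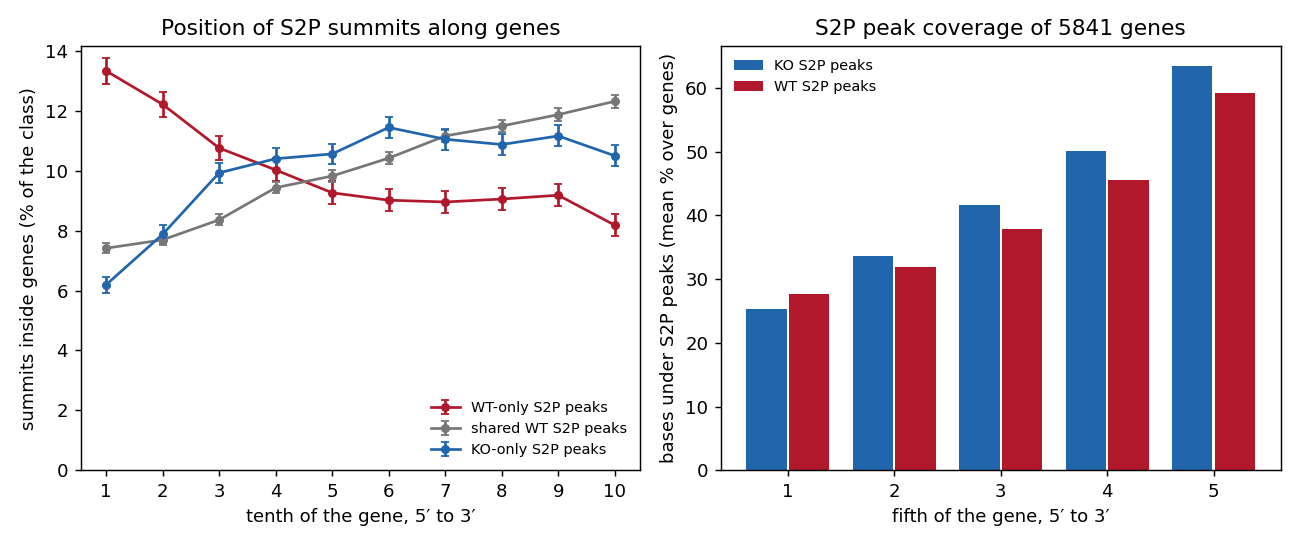
Left, share of S2P summits in 10 equal parts of the gene from 5′ to 3′ for WT-only, shared WT and KO-only peaks, with exact 95% intervals for counting error. Right, percentage of bases under KO and WT S2P peaks in 5 equal parts of 5841 genes, pooled over genes (the axis label calls it a mean). WT-only summits decline along the gene while shared summits increase, and KO coverage is below WT coverage in the first 20% alone.

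WT-only summits lay inside a protein-coding gene in 91.0% of cases (90.7 to 91.3), against 86.1% of shared and 88.6% of KO-only summits. They were fewer past 3′ ends: 3.02% lay outside protein-coding genes but within 5 kb past a 3′ end, against 6.84% of shared and 3.66% of KO-only summits. At gene starts, within 1 kb on either side, there were 3.43% of WT-only, 2.92% of shared and 2.2% of KO-only summits. Among other transcripts, 705 long noncoding RNA genes held 1458 WT-only summits. Of these genes Brip1os and Rsf1os1 held 10 each, beside 15 and 9 KO-only summits, and both names mark a transcript antisense to a coding gene, whose signal ChIP cannot separate by strand. By chromosome the WT-only share was 17.3% to 21.9% on the autosomes and 20.2% on X.

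At least 1 WT-only summit lay in 6163 protein-coding genes, 28.2% of 21883, and at least 1 KO-only summit lay in 6515, or 29.8%. Both kinds lay in 4866 genes. The count per gene was low: 1904 genes had 1 WT-only peak, the median was 3, and 765 had 10 or more. WT-only peaks outnumbered KO-only peaks in 2809 genes, and KO-only peaks were more numerous in 4148. Over all genes there were 29486 WT-only and 38889 KO-only summits, a ratio of 0.758, against which the counts of single genes and lists are to be read.

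The genes with the most WT-only peaks were long, and in 3 of the 10, Atxn1, Diaph3 and Adk, KO-only peaks were more numerous. St6galnac3, a sialyltransferase gene of 526860 bp (chr3:153198274-153725133), held 129 WT-only and 78 KO-only peaks, with 27.6% of its length under S2P peaks in KO and 32.4% in WT. Rabgap1l (chr1:160219174-160793476), a gene of a Rab GTPase-activating protein, held 116 and 62, with 13.1% covered in KO and 17.6% in WT. Utrn, the utrophin gene, held 94 and 88, and Atxn1, the ataxin 1 gene, 88 and 94. Diaph3, a formin gene, held 71 WT-only and 117 KO-only peaks, and Adk, the adenosine kinase gene, 64 and 128. Rere (71 and 25), a nuclear receptor corepressor gene, Pkp4 (62 and 24), an armadillo repeat gene, and Pitpnc1 (63 and 54), a phosphatidylinositol transfer protein gene, completed the 10 with Ctbp2.

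Ctbp2, the gene of a transcriptional corepressor (chr7:132986998-133124009), stood apart from them in its length of 137012 bp and in its balance, with 113 WT-only and 8 KO-only peaks. The WT-only peaks alone covered 29.4% of the gene, with a median of 28 fragments (20 to 54), and 17.0% of them lay in the first 20%. They were spread from the start to the 3′ end. The KO list still had 52 peaks in Ctbp2, with a median of 25 fragments and up to 131. One of the WT-only S2P peaks, at chr7:133054138-133054817, overlapped a GATA2 peak of 17 fragments that was called in WT alone. In all of Ctbp2 there were 3 GATA2 peaks in KO and 6 in WT, and 1 RUNX1 peak in KO and 4 in WT.

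Other genes in which WT-only peaks outnumbered KO-only peaks were picked after their values were seen. There were 61 genes with an excess of 10 or more, against 395 with as large an excess of KO-only peaks. Cmip (chr8:117257019-117461506), which encodes the c-Maf inducing protein, held 43 WT-only and 2 KO-only peaks, and S2P covered 0.860% of it in KO and 5.97% in WT. In a stretch of 20560 bp of Cmip without a KO peak there were 18 WT-only peaks, the highest number between 2 neighbouring KO peaks. Septin9 (chr11:117199661-117362325), a gene of a filament-forming GTPase, held 20 WT-only and no KO-only peaks, all in its 3′ part. Nek6, a mitotic kinase gene, held 28 and 3, Ankrd28, a protein phosphatase 6 subunit gene, 36 and 7, Snx13, a sorting nexin gene, 22 and 3, and Nol4l 18 and 1. In Cmip, Septin9, Nek6 and Nol4l no WT-only summit lay in the first 20%, and in Ankrd28 and Snx13 8.33% and 9.09% did. None of these genes shared the 5′ lean. Cd200r3, which encodes a receptor of the CD200 family, had 15 WT-only and no KO-only peaks, 80.0% of them in the first 20%. Each of these genes had a median of 25 to 40 fragments at its WT-only summits.

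**Figure D3:**
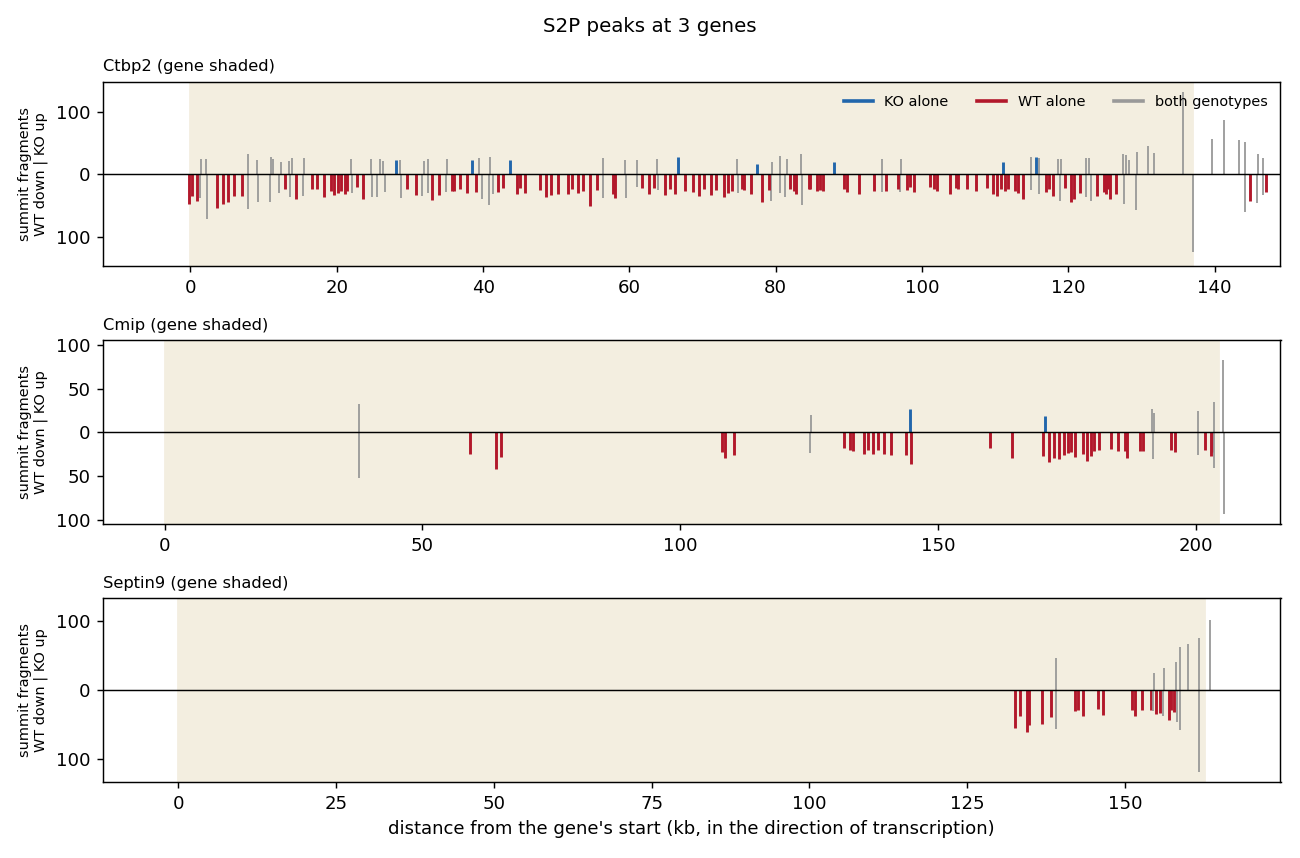
S2P peaks at Ctbp2, Cmip and Septin9 by distance from the gene's start in kb, in the direction of transcription, with summit fragments of KO peaks drawn up and of WT peaks drawn down. Colour marks peaks called in KO alone or WT alone, grey marks peaks of both, and the shaded span is the gene. WT-only peaks run through all of Ctbp2 and through the 3′ part of Septin9.

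Short genes reached a high coverage by few WT-only peaks. Atp6ap1, an accessory subunit gene of the vacuolar proton pump, had 10 WT-only and no KO-only peaks over 7625 bp, which made up 33.4% of the gene, with 8.90% under S2P peaks in KO and 44.6% in WT. Acads, the gene of short-chain acyl-CoA dehydrogenase, had 7 and 0, with 8.30% covered in KO and 33.2% in WT, and Ssbp4 had 9 and 0, with 5.50% covered in KO and 37.7% in WT. These 3 genes were also picked after their values were seen. In 199 of the 6163 genes with WT-only peaks, KO S2P peaks covered no base. The reverse count, of genes with KO-only peaks and no WT coverage, is not given here. The 199 genes held 265 WT-only peaks in all. The most in 1 of these genes was 6, in Fcho1, a gene of endocytosis, and in Grhl2, an epithelial transcription factor gene. Vhl, the von Hippel-Lindau tumour suppressor gene, had 4, with 37 fragments at most.

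**Figure D4:**
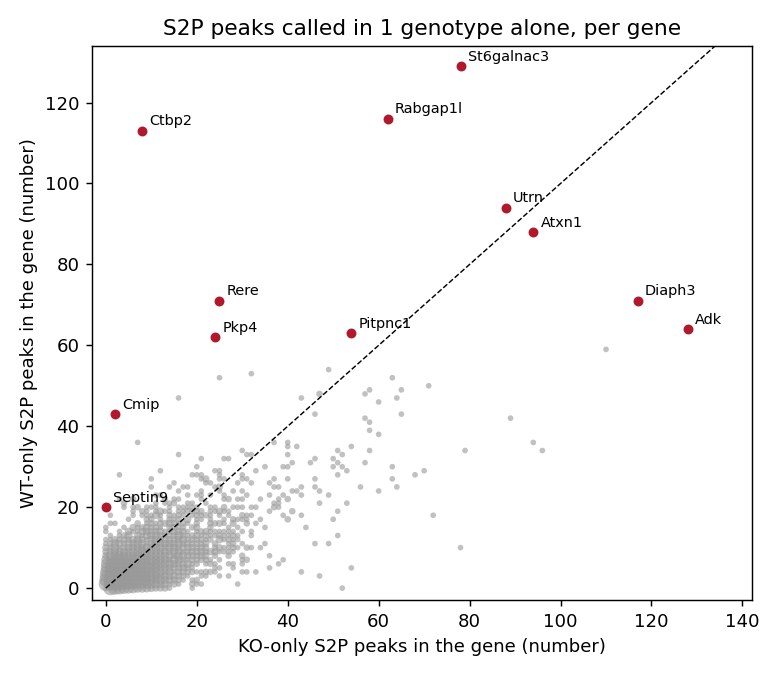
Number of KO-only (x) and WT-only (y) S2P peaks in each protein-coding gene that held either, with the dashed line at equality. Grey points are genes, larger where several coincide, and red points are the 10 genes with the most WT-only peaks and 2 picked for their excess, Cmip and Septin9. Most genes lie near the origin, and Ctbp2, with 113 WT-only and 8 KO-only peaks, lies far from the line.

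By gene list, WT-only peaks were read against the ratio of 0.758 over all genes. Erythroid genes held 124 WT-only and 171 KO-only peaks, a ratio of 0.725. Of the 55, 32 (58.2%) held at least 1 WT-only peak and 26 at least 1 KO-only peak. Among all genes 28.2% and 29.8% did, and each list below stands beside the same shares. All genes include those without any S2P, while 52 of the 55 erythroid genes had S2P coverage in WT. These shares are thus not like for like, and enrichment of a list was not tested. The nuclear export gene Xpo7 (19 WT-only and 19 KO-only peaks), the ankyrin gene Ank1 (19 and 23), the spectrin gene Sptb (12 and 17) and the signalling kinase gene Jak2 (8 and 7) held the most. Of genes for pausing and elongation of polymerase II, 28 of 35 (80.0%) held a WT-only peak and 25 a KO-only peak. They held 131 WT-only and 148 KO-only peaks in all. Aff4 (13 and 16) and Aff1 (11 and 15), scaffolds of the super elongation complex, had more KO-only peaks, and Ccnt2 (10 and 2), a cyclin of the serine 2 kinase P-TEFb, had more WT-only peaks. The highest WT-only summit in Ccnt2 had 99 fragments. RUNX and CHD family genes held 86 and 122, led by Chd6 (27 and 37), a remodeller of the CHD family, Cbfb (13 and 11) and Chd9 (13 and 5).

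Stem and progenitor genes held 67 WT-only and 82 KO-only peaks in 5 of 25 and 6 of 25 genes, and Etv6, an ETS repressor gene, supplied 54 and 49 of them. Cell cycle genes held 61 and 55, with Cdk6 (24 and 16), a cyclin-dependent kinase gene, and Rb1 (22 and 26), the retinoblastoma gene, holding most. Housekeeping genes held 22 WT-only and 3 KO-only peaks, in 6 of 26 genes, among them Hprt (6 and 2), a purine salvage gene, Pgk1 (6 and 0), a glycolytic gene, Tbp (4 and 0), the TATA-binding protein gene, and Polr2a (4 and 0), the gene of the largest polymerase II subunit. Mast cell genes held 19 and 6, in 6 of 19 genes: Cpa3 (8 and 3), a mast cell protease gene, Il1rl1 (5 and 1), the interleukin 33 receptor gene, Tph1 (2 and 0), for serotonin synthesis, and Hpgds (2 and 2), for prostaglandin D2 synthesis, were among them. Megakaryocyte genes held 10 and 11, with Plek (8 and 4), myeloid genes 0 and 2, lymphoid genes 2 and 6, and non-blood genes 5 and 3, all 5 in Pax6. The housekeeping, mast cell, non-blood and cell cycle lists thus had more WT-only than KO-only peaks, with ratios of 7.33, 3.17, 1.67 and 1.11, all but the last on few peaks. In the same S2P lists, coverage was lower in KO at 8 mast cell genes and higher at 1. An S2P difference there was already known, so the mast cell ratio is no independent support. In bulk chromatin, fewer cells of a type and less signal per cell cannot be told apart.

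GATA2 and RUNX1 peaks were called at WT-only S2P peaks more often in KO than in WT, as at the other S2P peaks, and the KO factor lists were longer. There were 80611 GATA2 peaks in KO and 68199 in WT, and 35281 RUNX1 peaks in KO and 28952 in WT. A GATA2 peak overlapped 6.16% of WT-only S2P peaks in KO (5.90 to 6.43) and 4.88% in WT (4.65 to 5.12), and a RUNX1 peak 4.67% in KO (4.44 to 4.90) and 3.46% in WT (3.26 to 3.67). At shared WT S2P peaks the GATA2 shares were 9.12% in KO and 7.48% in WT, and the RUNX1 shares 6.15% in KO and 4.85% in WT. At KO-only S2P peaks they were 5.44% in KO and 4.51% in WT for GATA2 and 3.38% in KO and 2.56% in WT for RUNX1. At least 1 factor peak of either genotype overlapped 3211 of the WT-only S2P peaks (10.0%), against 13.3% of shared and 8.02% of KO-only S2P peaks.

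Binding relative to the other S2P peaks changed with how strength was matched. Overlap was counted over the whole S2P peak, and shared peaks were wider than WT-only peaks with and without matching. Median widths were 387 and 201 bp without matching, 270 and 201 bp at 23 to 33 fragments, and 252 and 196 bp in the middle range of −log10 q. The part of width in the factor shares was not tested. Among summits of 23 to 33 fragments, KO GATA2 overlapped 4.62% of WT-only peaks (4.32 to 4.93), 3.77% of shared (3.60 to 3.94) and 3.74% of KO-only peaks (3.52 to 3.98). KO RUNX1 overlapped 1.09% of WT-only (0.945 to 1.25), 0.615% of shared (0.548 to 0.689) and 0.774% of KO-only peaks (0.674 to 0.886). WT GATA2 and WT RUNX1 had the same order of WT-only above the others, at 3.55% and 0.839% of WT-only peaks. Matched instead on the middle range of −log10 q, KO GATA2 overlapped 5.65% of WT-only and 5.79% of shared peaks, and KO RUNX1 3.47% and 3.03%, with intervals that overlap. Within 1 kb of either end of a gene, its start or its 3′ end, RUNX1 was more frequent at WT-only peaks without matching. At WT-only peaks it was 32.7% in KO (30.7 to 34.8) and 24.3% in WT (22.4 to 26.2). At shared peaks it was 26.4% in KO and 21.3% in WT. In the middle range of −log10 q the KO shares there were 27.0% and 16.5%. The mix of ends differed: starts of known strand were 1097 of the 2055 WT-only and 3820 of the 12440 shared summits. Over 1 kb from either end, where 29959 of the WT-only summits lay, RUNX1 was less frequent at them without matching. It was at 2.74% in KO (2.56 to 2.93) and 2.03% in WT (1.88 to 2.2), against 4.03% in KO and 3.12% in WT at shared peaks. Among summits of 23 to 33 fragments there, the order was reversed. KO RUNX1 was at 0.952% of WT-only and 0.572% of shared peaks, and WT RUNX1 at 0.754% and 0.394%. In the middle range of −log10 q the shares were alike, 2.11% and 2.15% for KO and 1.59% and 1.66% for WT.

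**Figure D5:**
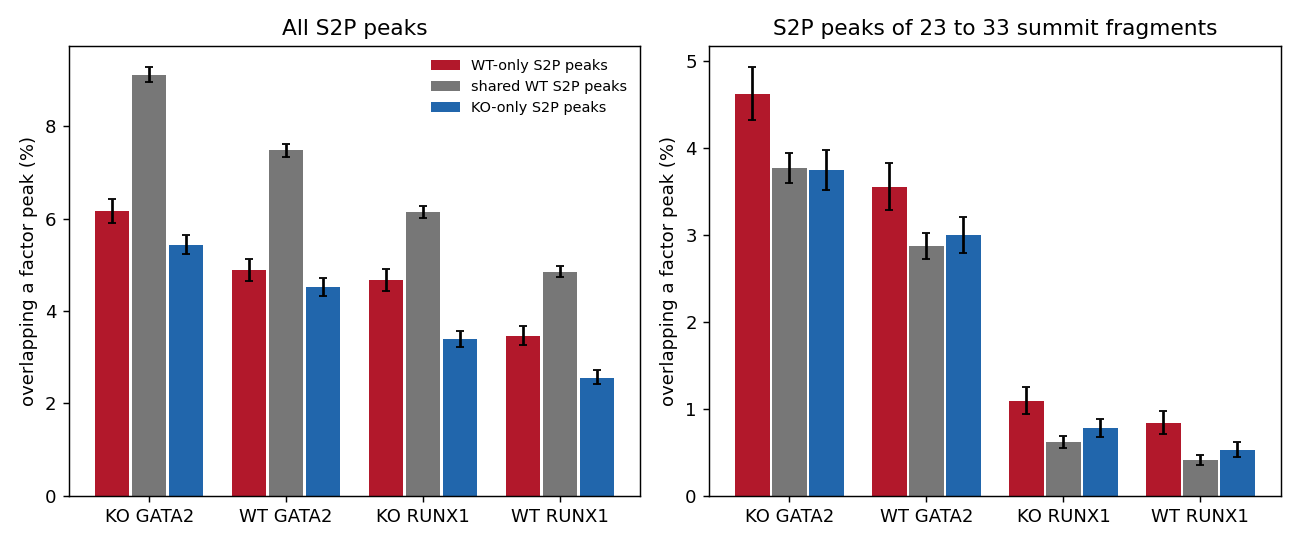
Share of WT-only, shared WT and KO-only S2P peaks that overlap a GATA2 or RUNX1 peak of KO or WT, for all peaks (left) and for summits of 23 to 33 fragments (right), with exact 95% intervals for counting error. WT-only peaks lie below shared peaks on the left and above them on the right.

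Factor peaks called in KO alone outnumbered those called in WT alone at each kind of S2P peak. Of all GATA2 peaks 31.2% of KO and 18.5% of WT peaks had no counterpart, and of RUNX1 peaks 30.4% of KO and 13.4% of WT peaks. At WT-only S2P peaks there were 527 with a KO-only GATA2 peak and 166 with a WT-only one, a ratio of 3.17, against 2.93 at shared and 2.49 at KO-only S2P peaks. For RUNX1 there were 396 with a KO-only peak and 101 with a WT-only peak, a ratio of 3.92, against 4.63 at shared and 4.65 at KO-only S2P peaks. Of WT-only S2P peaks, 24 (0.0750%) had both factors called in KO alone, against 0.279% of shared and 0.0668% of KO-only S2P peaks. Both factors were called in WT alone at 7 WT-only S2P peaks (0.0219%), against 0.0283% of shared and 0.0184% of KO-only S2P peaks.

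Of WT-only S2P peaks with a factor peak called in WT alone, the 10 with the highest S2P −log10 q in named genes were looked up. Ranbp9, described above, had the highest, and S2P covered 31.8% of it in KO and in WT. Clic1, a chloride intracellular channel gene, had an S2P summit of 70 fragments 33 bp from its start over a WT RUNX1 peak of 30 fragments, and Ndufv2, a subunit gene of respiratory complex I, had 57 fragments over one of 13. Eif5b, a translation initiation factor gene, had 60 fragments over a WT RUNX1 peak of 37, beside GATA2 peaks of 127 fragments in KO and 130 in WT. GATA2 peaks called in WT alone lay under WT-only S2P peaks in Spg11 (12 fragments), Pitpnc1 (13), R3hdm1 (19), Mcc (9) and Ctbp2 (17, described above). A WT-only RUNX1 peak of 13 fragments in Snrpn completed the 10. Apart from Eif5b, Clic1 and Ranbp9, the WT-only factor peaks of these 10 had 9 to 19 fragments.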

How the data were processed

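ChIP-seq peak lists of S2P, GATA2 and RUNX1 from KO and WT G1ER cells were used as deposited, 6 lists in all. Per the submitters' processing notes, which give no roles or settings, the tools were Bowtie2 2.2.1 and MACS2 2.1.0 and the build was GRCm38, also called mm10. The labels name both S2P replicates of a genotype for 1 list, and how they were combined is not given in the sources used here. The deposited score is 10 times the −log10 q as a whole number, and the deposited fold enrichment is a ratio of summit pileup to local background. Each peak also has a deposited p-value and q-value, both written as −log10.

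The number of fragments at a summit and its local background were solved from the fold and the p-value that the authors deposited, with the Poisson model of the peak caller. The recomputed −log10 p fell within 0.005 of the deposited value for 99.1% to 100.0% of summits. For KO S2P this required scaling the pileup by 0.961. The lowest local background, which follows library depth, was 7.07 fragments in the KO and 7.00 in the WT S2P list. Read totals were not used here. Intervals are exact Clopper-Pearson (shares) or Poisson (fragments) 95% intervals and cover counting error only, since peaks of 1 list are no replicates and PCR copies of a molecule were not marked by identifiers.

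Genes came from the RefSeq table of GRCm38.p6, which gives no strand or exons. Strand came from the RefSeq promoter table for 17491 of 21883 protein-coding genes, with none on chromosome 18. Positions along genes used summits in exactly 1 gene. Coverage is the percentage of a gene under S2P peaks. The members and gene lists were chosen with earlier results of these data known. The named genes were, by −log10 q, the 10 strongest WT-only peaks in genes other than predicted ones, the 10 genes with the most, the 10 strongest with a WT-only factor peak and up to 4 genes per list. The 5 strongest over 5 kb from protein-coding genes and the peaks at the limit of the rule were also named. Genes picked otherwise are said to be, and some genes that the rule names are not reported here. Scripts (Python 3.11.15, NumPy 2.4.6, pandas 2.3.3, SciPy 1.17.1, Matplotlib 3.10.9) were tested on simulated data.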

Additional observations from a re-analysis of the deposited data

How the results depend on the processing

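The number of WT-only peaks depended on the rule, while at least 90.2% of them lay in protein-coding genes under each setting tried for that share. Against 32014 peaks and 19.6% of the WT list, requiring 50% of a WT peak to lie under KO peaks gave 44016 (27.0%), and counting a KO peak within 1 kb as shared gave 8927 (5.48%). WT peaks with −log10 q of at least 5 gave 11232 (10.5%), KO peaks with −log10 q of at least 5 gave 56902 (34.9%), and the stronger 50% of the WT list against as many KO peaks gave 17648 (21.7%). A width limit of 2 kb gave 20.9% and the same number of peaks, and no width limit 19.6%. With KO peaks of −log10 q of at least 5 the median gap was 964 bp, against 425.5 bp.

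The share inside protein-coding genes, 91.0%, was 96.2% with 5 kb on either side, 93.0% with all genes of the table and 90.2% for WT-only peaks with −log10 q of at least 5. The share within 1 kb of either gene end, start or 3′ end, was 6.42%. It was 9.50% with all genes and 8.49% at the stricter q. The share in the first 20% of the gene, 25.6%, was 23.5% for summits over 1 kb from gene ends, 27.4% with each gene counted once, 21.7% and 24.5% for like strength by fragments and by q, 32.2% for peaks with no KO peak within 1 kb and 28.9% at the stricter q, and it moved within its interval without Ctbp2. These settings for the first 20% of the gene, and the ranking of genes by excess, were chosen after seeing the data.

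KO GATA2 was at 12.3% of WT-only peaks with factor summits within 500 bp, 5.41% with stricter factor peaks and 6.83% at the stricter S2P q, and WT GATA2 at 10.1%, 4.28% and 5.32%. KO RUNX1 was at 7.41%, 4.22% and 7.27%, and WT RUNX1 at 6.03%, 3.14% and 5.48%. With no KO S2P peak within 1 kb, RUNX1 was at 5.90% in KO and 4.47% in WT. The KO share stayed above the WT share for both factors in each of these settings and without chromosome 5. At the stricter S2P q, Ctbp2 held 60 WT-only peaks, Rabgap1l 47 and St6galnac3 40, and 8 of the 10 leading genes were among the leading 10 again. No paired analysis was possible because the 2 S2P replicates of each genotype are in 1 list, which also leaves no replicate to leave out. Depth limits the calls: at the WT local background of these peaks, and without the scaling of the KO pileup, the weakest listed KO p corresponds to a median of 19 fragments. The KO background at these places was not known, so how much KO signal went unlisted cannot be told.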
